A study of Mus musculus with 21 samples.

Results

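A set of 10 splicing genes was followed through the brain of mice that overexpressed Ins2, a mouse insulin gene, in the choroid plexus. They were the 4 CDC2-like kinase genes Clk1, Clk2, Clk3 and Clk4, the 3 LUC7-like genes Luc7l, Luc7l2 and Luc7l3, and the SR protein genes Srsf5, Srsf7 and Srsf11. These are 10 of the 25239 genes in each deposited table. The set was selected on the measured hypothalamus values of Clk1 and Luc7l3, which stood lower in the Ins2 group than in its controls, so that contrast is given here as a description without a test. Choroid plexus values did not choose the genes, and tests are given there. The genes were, however, listed with earlier results of these data known.

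Poly(A) RNA was sequenced from 2 tissues of wild-type C57BL/6J mice. Choroid plexus, the tissue whose epithelium secretes cerebrospinal fluid into the ventricles, gave 6 libraries with Ins2 overexpressed in that tissue and 5 control libraries. Hypothalamus gave 5 Ins2 libraries (replicates 1 to 5) and 5 control libraries (replicates 1 to 4 and 6), the Ins2 animals again having the overexpression in the choroid plexus. The labels call the controls untreated, whereas a GFP prefix marks the control columns of the hypothalamus table, so whether those animals received a GFP construct is not settled. The way Ins2 was introduced, the cells that received it, and the age and sex of the animals were not given in the sources used here. No label says whether replicates are separate animals, so the spread behind each p-value may be technical.

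CDC2-like kinases sit in the nucleus and phosphorylate SR proteins, the serine- and arginine-rich factors that help the spliceosome choose exons. Phosphorylation releases SR proteins from nuclear speckles to nascent transcripts. LUC7-like proteins associate with the U1 small nuclear ribonucleoprotein and influence which 5′ splice sites it uses. Transcripts of Clk1, Clk4 and several SR genes are themselves spliced in alternative ways, including nuclear forms that keep introns and forms that are degraded. Clk2 and Srsf5 have a known tie to insulin: CLK2 protein rises in liver on feeding, and SRSF5 takes part in the insulin-dependent splicing of a protein kinase C transcript in muscle cells. The values here are totals per gene, so these forms cannot be told apart.

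Promoter sequence was taken from RefSeq (build GRCm38.p6), which matched 8 of the 10 genes, not Clk1 and Luc7l. Clk4, Luc7l3 and Srsf11 are shown because, with Clk1, they had the lowest ratios of Ins2 to control hypothalamus. Each run covers the bases upstream of a RefSeq start that lie outside annotated exons, 5′ to 3′ on the gene's strand. The Clk4 run lies within the annotated span of its gene (51261730 to 51281766). The Srsf11 run is from 1 of its 2 promoters, and the other lies within the annotated span of the gene. Capitals mark the cyclic AMP response element TGACGTCA, the ETS motif CCGGAAG and the GC box GGGCGG, or their reverse complements.
Clk4, chr11:51262864-51263113, plus strand: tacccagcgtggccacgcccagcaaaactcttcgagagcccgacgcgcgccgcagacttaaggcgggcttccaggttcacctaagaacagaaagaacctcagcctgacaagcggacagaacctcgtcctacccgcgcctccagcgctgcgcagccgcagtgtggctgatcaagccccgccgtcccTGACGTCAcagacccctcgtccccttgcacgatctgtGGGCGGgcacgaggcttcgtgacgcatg
Luc7l3, chr11:94321989-94322213, minus strand: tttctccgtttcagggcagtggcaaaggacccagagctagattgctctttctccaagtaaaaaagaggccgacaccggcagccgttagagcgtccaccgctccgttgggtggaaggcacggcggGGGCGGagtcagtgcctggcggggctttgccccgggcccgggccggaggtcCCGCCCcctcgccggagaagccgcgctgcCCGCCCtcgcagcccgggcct
Srsf11, chr3:158036640-158036856, minus strand: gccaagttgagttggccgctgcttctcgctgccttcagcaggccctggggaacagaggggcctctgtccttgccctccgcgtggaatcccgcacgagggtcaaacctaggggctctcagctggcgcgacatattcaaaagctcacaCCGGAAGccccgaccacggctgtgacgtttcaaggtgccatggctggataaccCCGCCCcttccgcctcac

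A set of 6 motifs was searched on both strands of the 250 bases upstream of each RefSeq start. The 8 matched genes have 9 such promoters, because Srsf11 has 2. GC boxes (GGGCGG) were in 8 of the 9 promoters, of 7 genes, and in 32.7% of all 32817 promoters of the table. The ETS motif (CCGGAAG) was in 5 promoters, those of Clk3, Srsf5, Srsf7 and both of Srsf11, against 6.91% of all promoters. Clk4 alone among them held the cyclic AMP response element (TGACGTCA; 1.55% of all), and Clk2 alone held the E-box CACGTG (6.02% of all). CCAAT was in the promoters of Clk2 and Luc7l2 (33.8% of all). The forkhead motif GTAAACA (3.16% of all) was in none of the 9. GC content ran from 37.2% for Luc7l2 to 75.2% for Clk3, with a median of 52.4% over all promoters. All 250 bases of the Luc7l2 and Clk3 windows lie in annotated exons of the same gene. Both extremes, and the motifs of these windows, are thus from exon sequence. These matches describe letters in a window and identify no bound factor.

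The libraries held 25.95 to 36.3 M reads in genes in choroid plexus and 27.4 to 62.1 M in hypothalamus (M, 1e+06). Each value below is a read count of a gene divided by the authors' DESeq2 size factor, called scaled reads. The overexpression was visible in choroid plexus, where Ins2 averaged 430 ± 50.7 scaled reads in controls and 826 ± 162 in Ins2 libraries (SD; fold 1.90, limma adjusted p = 0.00594). In hypothalamus 9 of 10 libraries held no Ins2 read and Ins2 replicate 4 held 5. Choroid plexus epithelial markers such as Ttr, the transthyretin gene, were abundant in choroid plexus. Hypothalamic peptide genes such as Avp and Pmch were abundant in hypothalamus. Of 16 hypothalamic genes, only 2, Crh and Hmx2, were at 0 in every choroid plexus library. Others were detected there: Agrp averaged 21.8 scaled reads in controls and 29.9 in Ins2 libraries, and Avp 117 ± 257 and 3.53 ± 3.04. Choroid plexus control 2 stood apart: its 12 oligodendrocyte markers summed to 56266 scaled reads, against 2656 to 6115 over the other choroid plexus libraries of both groups. Its summed hypothalamic markers were also the highest, at 689 scaled reads, against 31.9 to 66.3 in the other controls. No Ins2 library of choroid plexus came near that sum.

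All 10 genes passed the filter of a mean of at least 10 scaled reads in both tissues, with 105 to 7018 reads per library in choroid plexus and 171 to 14484 in hypothalamus. To set the genes against one another, reads were divided by the annotated exon length of the gene and by the library total (reads per kb per M reads). That length joins the exons of all annotated transcripts of a gene and can exceed the length of its mRNA, so the order depends on it. In control choroid plexus, Srsf5 was the most abundant of the 10 at 49.1 ± 5.61 (SD, n = 5). Srsf7, a zinc-knuckle SR protein that also acts in mRNA export, followed at 14.4 ± 0.908, then Luc7l2 at 13.9 ± 0.666, Luc7l3 at 12.6 ± 0.719 and Srsf11 at 11.1 ± 0.571. Luc7l (6.38 ± 0.358), Clk1 (5.50 ± 0.668), Clk3 (4.87 ± 0.257) and Clk4 (4.23 ± 0.382) came next. Clk2 was far below the rest at 0.759 ± 0.0411. The ranges of neighbours in this order overlapped for Srsf7 and Luc7l2, Luc7l2 and Luc7l3, Luc7l and Clk1, Clk1 and Clk3, and Clk3 and Clk4.

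In control hypothalamus the top and the bottom of the order were alike, from Srsf5 at 69.3 ± 7.43 and Srsf7 at 40.3 ± 3.29 down to Clk2 at 1.37 reads per kb per M reads. Between them, Luc7l3 came next at 30.6 ± 1.52, above Srsf11 at 23.6 ± 1.38 and Luc7l2 at 21.4 ± 1.06. Clk1 at 18.2 ± 1.87 and Luc7l at 17.4 ± 0.342 overlapped, as did Srsf11 and Luc7l2, and all other neighbours had separate ranges. Clk4 was at 12.2 ± 1.35 and Clk3 at 9.38 ± 0.709. In the Ins2 hypothalamus the order of Clk1 and Luc7l was the other way round, with Luc7l at 17.2 ± 0.744 and Clk1 at 15.1 ± 0.571, in ranges that still overlapped. The 2 tissues were scaled separately and differ in the transcripts that fill their libraries, so levels were not compared between them.

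**Figure D1:**
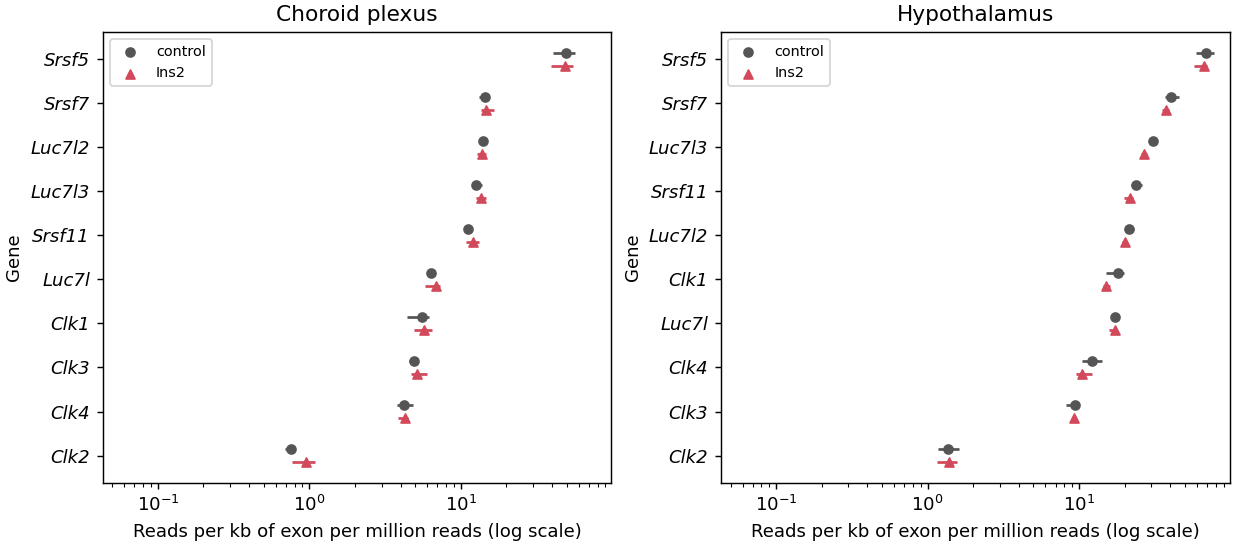
Level of each of the 10 genes in reads per kb of exon per M reads (log axis), for control and Ins2 libraries of choroid plexus and hypothalamus. Markers are group means and lines run from the lowest to the highest library. Srsf5 is highest (control means 49.1 and 69.3) and Clk2 lowest (0.759 and 1.37) in each tissue.

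Clk1 (GRCm38 chromosome 1, 58410189 to 58424066, minus strand) held 5641, 5249, 5222, 5561 and 4338 scaled reads in the hypothalamus controls 1, 2, 3, 4 and 6. The Ins2 libraries 1 to 5 held 4369, 4274, 4431, 4204 and 4585. Controls 1 to 4 were all above the highest Ins2 library, whereas control 6 lay among the Ins2 libraries, so the ranges overlapped. The means were 5202 ± 517 and 4373 ± 147 (SD, n = 5 each), a ratio of 0.844 and a log2 difference of -0.25 with a standard error of 0.06. The controls varied by 9.94% (coefficient of variation) and the Ins2 libraries by 3.37%, with counting error alone at 1.42%. In bulk tissue, fewer cells of a type and less RNA per cell cannot be told apart.

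Clk4 (chromosome 11, 51261730 to 51281766, plus strand), the closest relative of Clk1, held 2896, 2470, 2499, 2447 and 2138 scaled reads in the controls and 2491, 2041, 2038, 2272 and 1945 in the Ins2 libraries. Control 1 was the highest library and control 6 the lowest control, and the ranges overlapped. The means of 2490 ± 270 and 2158 ± 222 gave a ratio of 0.867. Clk2 (chromosome 3, 89164795 to 89176921, plus strand) and Clk3 (chromosome 9, 57750624 to 57765860, minus strand) had ratios near 1. Clk2 averaged 256 ± 35.4 scaled reads in controls and 260 ± 36.0 in Ins2 libraries, and Clk3 2793 ± 215 and 2767 ± 38.0. Clk3 shares 15.2% of its exon bases with Edc3 on the opposite strand, and since the strand setting of the counting is not given, its value is uncertain.

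Luc7l3 (chromosome 11, 94287890 to 94321988, minus strand) held 8138, 7425, 7578, 8334 and 7795 scaled reads in the controls and 6979, 6834, 6696, 6820 and 7260 in the Ins2 libraries. Every Ins2 library lay below every control, the only one of the 10 genes for which the ranges did not overlap. Over all 16363 genes tested, 0.727% had every Ins2 library below every control and 0.77% had every one above, and nothing is read from the comparison because this contrast chose the gene. The means of 7854 ± 379 and 6918 ± 216 gave a ratio of 0.881 (log2 difference -0.18, standard error 0.04). Luc7l2 (chromosome 6, 38551334 to 38609470, plus strand) averaged 9106 ± 450 and 8631 ± 269, a ratio of 0.948, with overlapping ranges. It shares 18.9% of its exon bases with the noncoding gene Gm26699 on the opposite strand. Luc7l (chromosome 17, 26252896 to 26285504, plus strand) was level, at 4600 ± 109 and 4592 ± 188.

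Among the SR genes Srsf11 (chromosome 3, 158010473 to 158036639, minus strand) had the lowest ratio, 0.921. It held 7711, 6937, 6576, 6966 and 6981 scaled reads in the controls and 6739, 5975, 6398, 6581 and 6679 in the Ins2 libraries. Control 3 lay within the range of the Ins2 libraries and the other 4 controls lay above it. Srsf7 (chromosome 17, 80200080 to 80207307, minus strand) averaged 5043 ± 404 and 4711 ± 182, a ratio of 0.936. Srsf5 (chromosome 12, 80945504 to 80950507, plus strand) averaged 9739 ± 1029 and 9479 ± 751, a ratio of 0.975, and its 5 controls alone spanned 8342 to 10900 scaled reads. The ranges of both genes overlapped.

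Across the 10 genes in hypothalamus, 9 log2 differences were below 0 and 1 (Clk2) was above, with a median of -0.09. Over all tested genes 49.7% were below 0, 50.3% above, and the median was 0.0011. No gene of the tissue passed limma's adjusted threshold of 0.05 (0 of 16363, 0%), while 1624 genes (9.92%; 5.85% higher and 4.08% lower) had an unadjusted p under 0.05. edgeR's quasi-likelihood test on the recovered reads called 0 genes and DESeq2 called 21 (0.128%). Leaving out control 6, the library in which Clk1 lay among the Ins2 values, gave 18 genes called by limma (0.11%). Since the contrast chose the set, these shares stand beside the counts and support nothing about it.

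**Figure D2:**
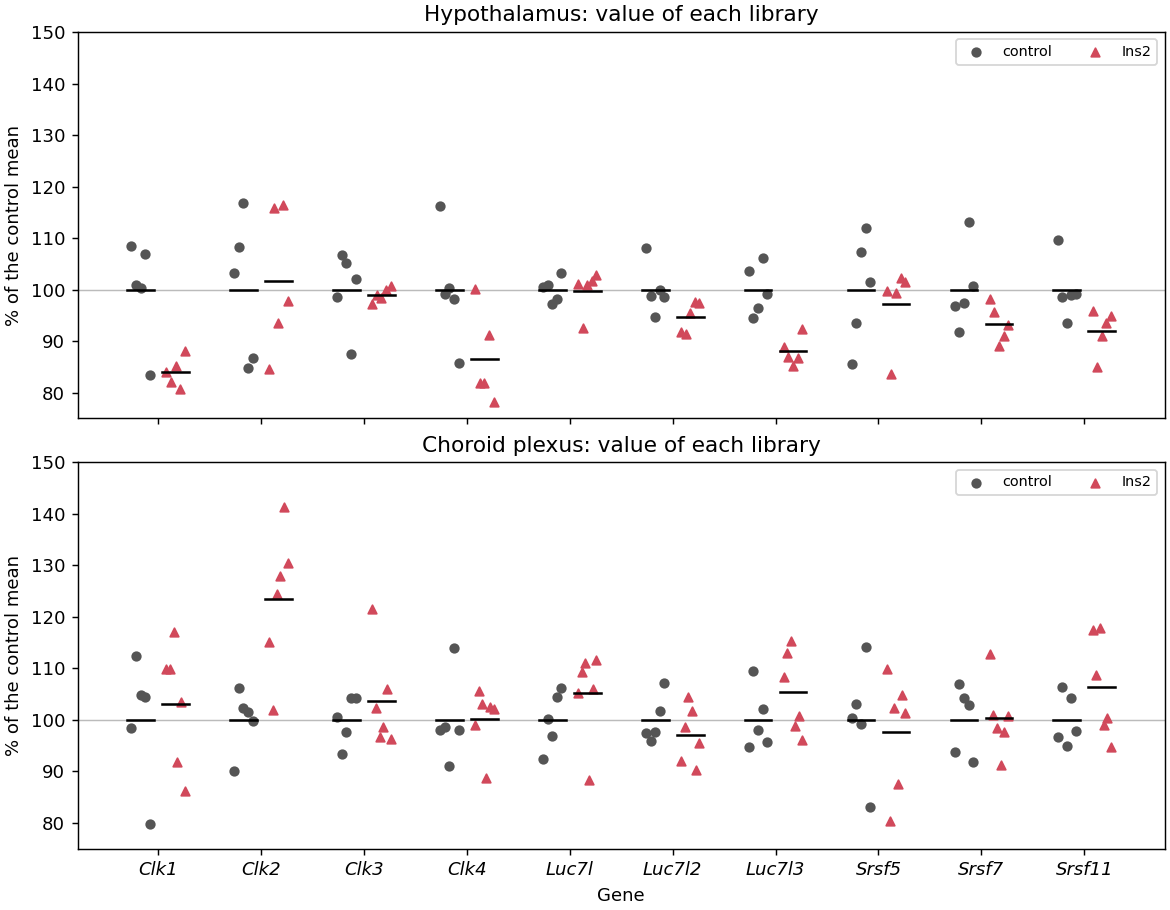
Scaled reads of the 10 genes in each library (points), as % of the control mean of the gene in the same tissue. Bars mark the group mean, for control and Ins2 libraries of choroid plexus and hypothalamus. In hypothalamus the Ins2 points of Luc7l3 (85.3% to 92.4%) all lie below its controls (94.5% to 106%). Those of Clk1 overlap the controls through 1 control library at 83.4%.

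Marker lists of other cells and of ribosomal proteins stand beside these hypothalamus values. Of 12 thalamus markers, 10 had a log2 difference above 0 (median 0.15), 6 of them at an unadjusted p under 0.05, and their summed scaled reads ran from 27642 to 29698 in controls and from 29301 to 31931 in Ins2 libraries. Their mean log2 level in control 6, the control with the lowest Clk1 and Clk4, was 9.99, against 9.68 to 9.85 in the other controls and 9.84 to 10.16 in the Ins2 libraries. Of 16 hypothalamic peptide and transcription factor genes 13 were below 0 (median -0.10), with sums of 55040 to 65243 and 55959 to 62605. Of 30 ribosomal protein genes 24 were below 0 (median -0.09), 9 of them at an unadjusted p under 0.05, with sums of 271630 to 350040 in controls and 272770 to 292160 in Ins2 libraries. Without control 4, which held the highest ribosomal sum, 19 of 30 were below 0 and the median was -0.02. Of 14 neuron markers 10 were above 0 (median 0.05), 4 of them at an unadjusted p under 0.05 and 1 with separate ranges. The summed ranges of all these lists overlapped between the groups, and none of these genes passed the adjusted threshold. Their part in the values of Clk1, Luc7l3, Clk4 and Srsf11 was not tested.

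The choroid plexus itself, where Ins2 was overexpressed, was the comparison not used to choose the genes. None of the 10 genes passed limma's adjusted threshold there, and the adjusted p-values ran from 0.793 to 0.995. Over the tissue, limma called 2 of 14533 genes (0.0138%), both higher: Ins2 itself and Jchain, the joining chain gene of antibody-secreting cells. edgeR called 2 genes (0.0138%), none of them among the 10. DESeq2 called 25 (0.172%), 4 higher and 21 lower, none of them among the 9 for which it gave an adjusted p, while for Clk2 it gave none. At an unadjusted p under 0.05 there was 1 of the 10, Clk2, against 6.21% of all genes (2.54% higher and 3.67% lower). None of the 10 had separate ranges, which 0.234% of all genes had upward and 0.392% downward. Of the 10 log2 differences 8 were above 0 and 2 below, with a median of 0.05, beside 48.4% above 0, 51.6% below and a median of -0.0045 over all genes.

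Clk2 was the kinase with the largest difference in choroid plexus. Its controls held 108, 127, 123, 122 and 120 scaled reads and its Ins2 libraries 138, 122, 149, 154, 170 and 157. In all, 5 of 6 Ins2 libraries were above the highest control, and Ins2 replicate 2 was within the control range. The means were 120 ± 7.18 (n = 5) and 148 ± 16.3 (n = 6), a fold of 1.23 with a 95% interval of 1.01 to 1.50. Permuting the labels exactly (462 splits, two-sided) gave p = 0.0108 for this gene alone, with 0.00216 the smallest it can give, and limma's p adjusted over all genes was 0.793. With 105 to 180 reads per library, counting error alone is 8.56% of the level, near the 5.98% and 10.98% by which the controls and the Ins2 libraries varied.

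The pair that chose the set, Clk1 and Luc7l3, showed no called difference in choroid plexus. Clk1 held 1314, 1499, 1399, 1395 and 1064 scaled reads in the controls and 1467, 1466, 1563, 1225, 1382 and 1149 in the Ins2 libraries. The ranges overlapped almost entirely, with control 5 the lowest library of all. The fold was 1.03, with a 95% interval of 0.904 to 1.18 (exact permutation p = 0.688, limma adjusted p = 0.964). Luc7l3 held 2596, 3000, 2689, 2798 and 2626 in the controls and 2972, 3096, 3164, 2710, 2763 and 2634 in the Ins2 libraries. Its fold was 1.05 (0.965 to 1.15; exact permutation p = 0.242, limma adjusted p = 0.898), with overlapping ranges. The interval of each gene includes no difference. The difference between the tissues was not tested.

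Srsf11 held 2704, 2977, 2658, 2920 and 2738 scaled reads in the choroid plexus controls and 3287, 3047, 3301, 2774, 2812 and 2655 in the Ins2 libraries. Ins2 replicates 1, 2 and 3 were above every control, replicate 6 was below every control, and the other two lay among the controls, for a fold of 1.06 (0.968 to 1.16; limma adjusted p = 0.884). The same Ins2 replicates, 1, 2 and 3, were the highest Ins2 libraries of Luc7l3. Clk4 averaged 732 ± 61.5 and 733 ± 44.1 and Srsf7 1523 ± 103 and 1528 ± 108, differences far below their SDs. Clk3 was at 1.03, Luc7l at 1.05, Luc7l2 at 0.971 and Srsf5 at 0.977 times the control level. None of the 6 passed the adjusted threshold, and the widest of their 95% intervals ran from 0.867 to 1.10, for Srsf5.

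The genes were next compared library by library, to see which of them varied with Clk1. In the 11 choroid plexus libraries, Clk1 and Luc7l3 varied together (Pearson r = 0.800, Spearman rho = 0.855, permutation p = 0.00331 and 0.00164, or 0.0298 and 0.0148 after adjustment over the 9 relations of Clk1). Removing the group means gave r = 0.817, and leaving out the 2 libraries farthest from the median of Clk1 (control 5 and Ins2 replicate 6) gave 0.837. Without control 2, the library high in oligodendrocyte markers, r was 0.781. The adjusted p of r missed the threshold when 1 of 4 libraries was left out (0.0787 without control 2, and 0.0714, 0.0552 and 0.101 without Ins2 replicates 1, 2 and 3), whereas that of rho passed in all 11 cases, at 0.0411 or less. Of 14532 other genes, 1.05% had a higher centred r with Clk1 than Luc7l3 had.

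Srsf11 also followed Clk1 in choroid plexus, at r = 0.711 and rho = 0.782 (permutation p = 0.0150 and 0.00597, adjusted 0.0675 and 0.0269). Thus rho passed the adjusted threshold and r did not. Without 1 library the adjusted p of rho passed in 4 of 11 cases, and it reached 0.0900 without Ins2 replicate 1 or 2. Its r was 0.744 without the 2 farthest libraries and 0.711 without control 2, and 4.09% of genes had a higher centred r. Srsf7 had r = 0.608 and rho = 0.673 (permutation p = 0.0474 and 0.0276, adjusted 0.142 and 0.0827), neither past the threshold after adjustment, and r = 0.649 without the 2 farthest libraries. The other 6 relations had an r from -0.306 (Luc7l2) to 0.415 (Srsf5) and adjusted permutation p-values of 0.457 or more. Clk4, the nearest relative of Clk1, was at 0.264. For Luc7l, r moved from 0.125 to 0.840 once control 5 and Ins2 replicate 6 were left out, so its low value rests on those libraries.

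**Figure D3:**
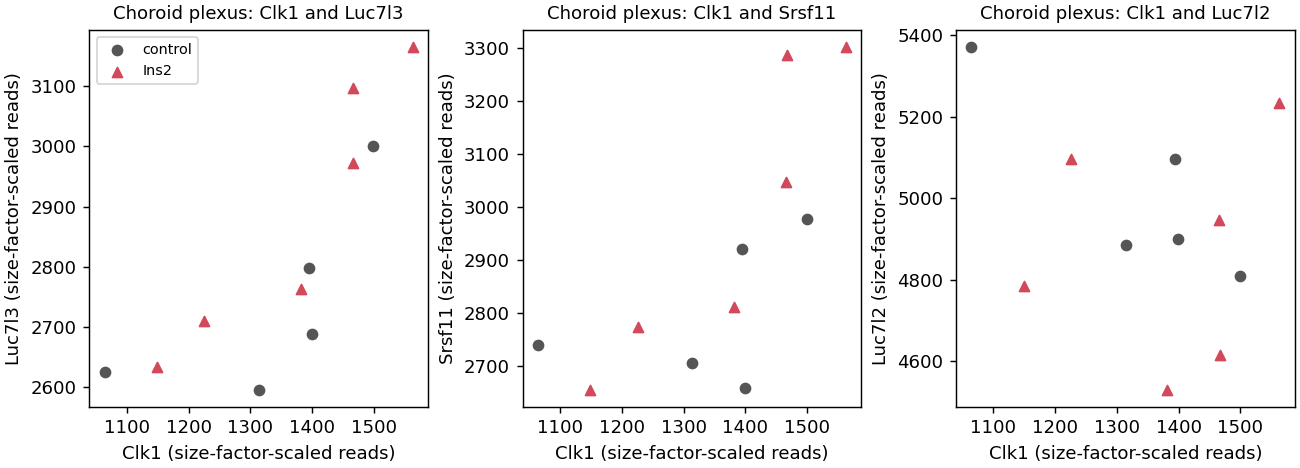
Choroid plexus scaled reads of Luc7l3, Srsf11 and Luc7l2 (y axes) against those of Clk1 (x axis), 1 point per library, control and Ins2 marked separately. Luc7l3 and Srsf11 climb with Clk1 over all libraries (r = 0.800 and 0.711), and Luc7l2 does not (r = -0.306). Within groups, r was 0.931 in Ins2 libraries and 0.683 in controls for Luc7l3, and 0.908 and 0.461 for Srsf11. For Luc7l2 it was 0.129 in Ins2 libraries and -0.874 in controls. These differences between the groups were not tested. Each r was taken on log2(scaled reads + 1).

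Among all 45 pairs of the 10 genes in choroid plexus, with group means removed, 31 had a positive r, the median was 0.177, and 8 were above 0.5. The strongest was Luc7l3 with Srsf11 at 0.887, and Clk4 with Luc7l stood at 0.723. Luc7l2 ran against the SR genes Srsf7 (-0.546) and Srsf5 (-0.524), the 2 pairs below -0.5. These are descriptions over libraries that share their scaling and tissue make-up.

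In the 10 hypothalamus libraries Clk1 had r = 0.799 with Luc7l3, 0.719 with Clk4, 0.653 with Srsf11 and 0.650 with Luc7l2, all given as descriptions. Much of this was the difference between the groups that chose the set: with group means removed the values were 0.406, 0.495, 0.307 and 0.381. Of the 45 centred pairs 22 were positive, with a median of -0.0029. Luc7l2 with Srsf11 was the highest at 0.803, followed by Luc7l3 with Srsf7 at 0.690. Clk3 ran against Srsf7 (-0.843) and Luc7l3 (-0.722). The pair of Luc7l3 and Srsf11, highest in choroid plexus, was at 0.517 here, and Luc7l2 with Srsf11 was at 0.116 in choroid plexus. The differences between the tissues were not tested.

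**Figure D4:**
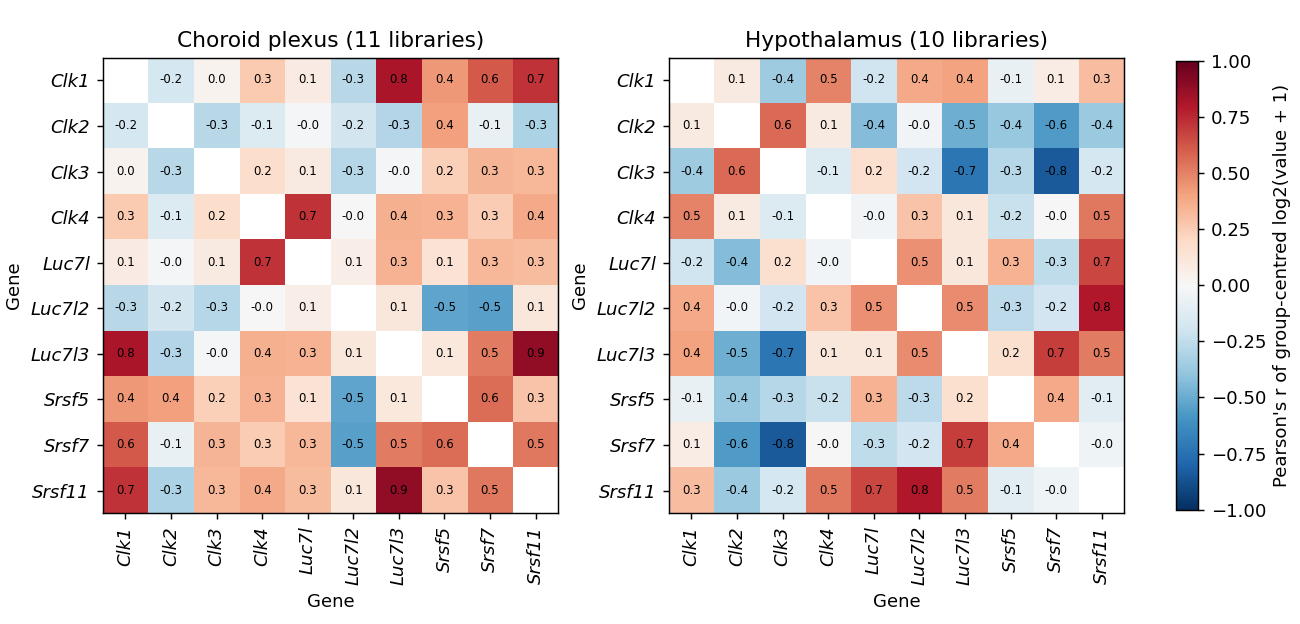
Pearson r of every pair of the 10 genes on log2(scaled reads + 1) with group means removed, in choroid plexus (11 libraries) and hypothalamus (10 libraries), on a colour scale from -1 to 1. The choroid plexus panel holds 31 positive pairs of 45, led by Luc7l3 with Srsf11 at 0.887, and the hypothalamus panel holds 22.

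By centred r, the genes most like Clk1 in choroid plexus included Ncstn (0.958), Tmem116 (0.956), Lmf1 (0.937), Retreg2 (0.937), Fbln7 (0.933), Fcgrt (0.931) and Ptprg (0.929), over 11 libraries. In hypothalamus, over 10 libraries, they were Gas2l3 (0.945), 4930599N23Rik (0.941), 1700016A09Rik (0.937), Cxcl16 (0.934), Pfkfb1 (0.921), Cfap43 (0.919), Aimp2 (0.916) and Cisd3 (0.915). Of these, 4930599N23Rik and 1700016A09Rik averaged 16.8 and 17.5 scaled reads in hypothalamus controls, near the filter of 10. The named genes are the highest of 14532 in choroid plexus and 16362 in hypothalamus, so the search itself picked high values. No relation of these genes to Clk1 was tested.

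The rest of the splicing machinery was described from lists of known components, which include some of the 10 genes. No gene of any list below passed limma's adjusted threshold in either tissue, in either direction. edgeR called none of them, and DESeq2 called Clk1, Luc7l3, Prpf39 and Irs2 in hypothalamus and Hipk2 and Kcnq1ot1 in choroid plexus. Over all genes tested DESeq2 called 0.128% in hypothalamus and 0.172% in choroid plexus. The hypothalamus contrast of Clk1 and Luc7l3 chose the set, so their calls support nothing about it. In hypothalamus the SR protein family had 10 of 17 tested genes below 0 with a median log2 difference of -0.03, and without Srsf5, Srsf7 and Srsf11 the median was 0.0024. Scaf1, with Srsf5 among the highest of the family in scaled reads, which are not corrected for gene length, averaged 9897 ± 1059 scaled reads in controls and 10982 ± 307 in Ins2 libraries (limma adjusted p = 0.396). SR protein kinases and their relatives had 11 of 19 below 0 (median -0.01), with 8 of 15 below 0 and the same median without the 4 CDC2-like kinases, and Srpk2, an SR protein kinase, was at 0.980 times control.

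Genes of the U1 particle and 5′ splice site had 12 of 21 below 0 in hypothalamus (median -0.0034), or 9 of 18 (median 0.0060) without the 3 LUC7-like genes, with Snrnp70, a U1 protein gene, at 1.07 times control and Ddx5, an RNA helicase gene, at 31642 ± 1382 and 31636 ± 1364 scaled reads. The U2 particle list had 13 of 21 below 0 (median -0.07), among them Sf3b1, at 9174 ± 538 and 8332 ± 332 scaled reads (limma adjusted p = 0.362). The catalytic spliceosome had 18 of 26 below 0 (median -0.04), speckle scaffold and RNA-binding genes 21 of 30 (median -0.04), hnRNP genes 17 of 29 (median -0.02), minor spliceosome genes 9 of 13 (median -0.05) and nonsense-mediated decay genes 11 of 18 (median -0.02). Neuronal and tissue splicing factors stood on the other side, with 17 of 25 above 0 (median 0.03), and nuclear-retained noncoding RNAs were even, at 6 of 12.

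In choroid plexus the medians of the same lists ran from -0.03 to 0.04. Above 0 were 13 of 17 SR family genes (median 0.03, or 0.04 without the 3 members), 10 of 19 kinases (median 0.0044, or -0.0097 without the CDC2-like kinases), 12 of 21 U1 genes (median 0.02), 16 of 21 U2 genes (median 0.02), 16 of 26 catalytic genes (median 0.02), 23 of 30 speckle genes (median 0.04), 9 of 13 minor spliceosome genes (median 0.04) and 8 of 12 nuclear noncoding RNAs (median 0.03). Below 0 were 16 of 29 hnRNP genes (median -0.02), 12 of 18 decay genes (median -0.03) and 13 of 20 neuronal and tissue factors (median -0.03). Malat1, an abundant speckle-associated noncoding RNA, averaged 45827 ± 5332 scaled reads in controls and 54874 ± 5826 in Ins2 libraries (fold 1.20, limma adjusted p = 0.582). Srsf1, the SR gene with the most scaled reads in the tissue, uncorrected for length, was at 0.974 times control.

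The upstream insulin pathway list, from receptor to AKT, had 13 of 23 genes above 0 in hypothalamus (median 0.03) and 9 of 23 in choroid plexus (median -0.04). Akt1, one of the AKT kinase genes, was at 1.07 times control in hypothalamus (limma adjusted p = 0.541). In choroid plexus, Pik3r1, a regulatory subunit of phosphoinositide 3-kinase, averaged 5239 ± 281 and 4587 ± 384 scaled reads (limma adjusted p = 0.557). Heat shock and cold response genes had 10 of 16 below 0 in hypothalamus and 13 of 16 above 0 in choroid plexus. Immediate early genes had 14 of 24 below 0 and 12 of 18 above 0, in the same order of tissues.

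**Figure D5:**
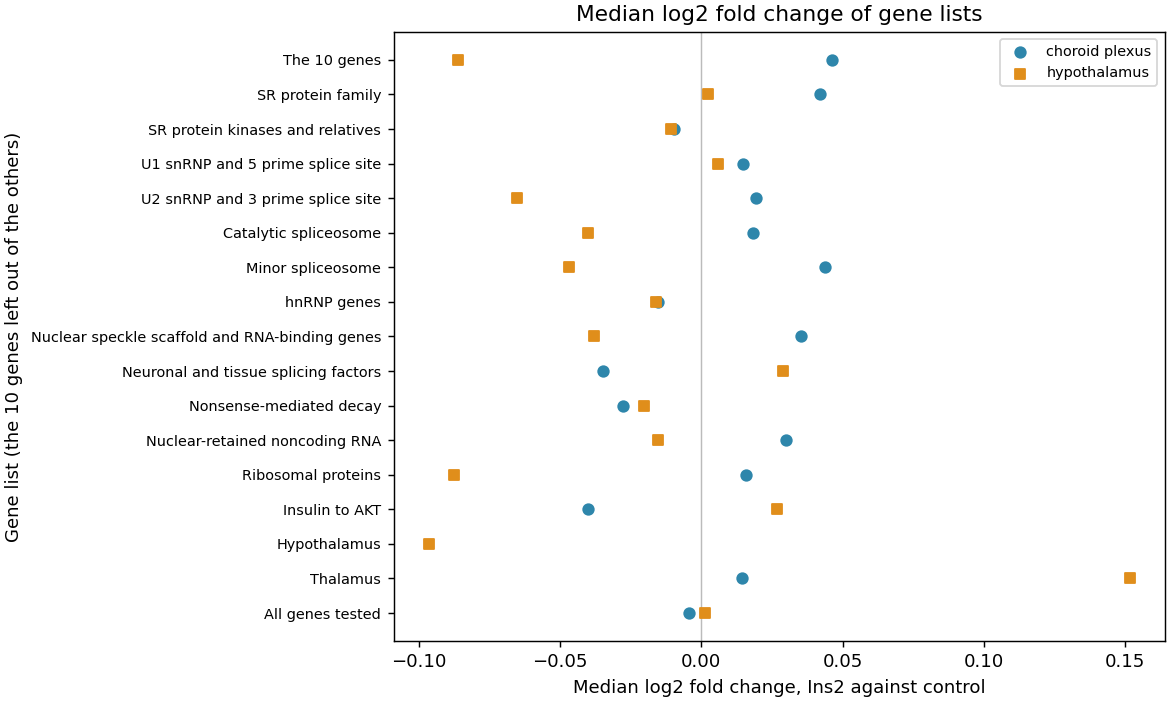
Median log2 difference, Ins2 minus control, of chosen gene lists in choroid plexus and hypothalamus, beside the 10 splicing genes and all genes tested. The 10 genes are left out of the other lists. The list of hypothalamic genes, with 3 tested in choroid plexus, has no point for that tissue. The 10 genes are at 0.05 in choroid plexus and -0.09 in hypothalamus, where thalamus markers are at 0.15.

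Markers of other cells in choroid plexus give the make-up beside which its values stand. All 12 astrocyte markers were below 0 (median -0.39), 10 of 12 oligodendrocyte markers were below 0 (median -0.21), and 10 of 12 microglia and macrophage markers were above 0 (median 0.29), none past the adjusted threshold. Leaving out single control libraries changed these values, and among these lists it turned the direction for oligodendrocytes only. Without control 2, 10 of 12 oligodendrocyte markers were above 0 (median 0.72), and 10 of 12 astrocyte markers were still below 0 (median -0.10). Without control 5 the microglia and macrophage median was 0.10, with 9 of 12 above 0. Summed astrocyte markers ran from 9416 to 18733 scaled reads in controls, the highest in control 2, and from 9087 to 10644 in Ins2 libraries. Of 12 endothelium markers 8 were below 0 (median -0.09), but without Ins2 replicate 4, 9 were above 0 (median 0.07). Their lowest sums were in Ins2 replicate 4 (7361), control 5 (8368) and Ins2 replicate 6 (8917). These libraries were also the lowest in Clk1, at 1225, 1064 and 1149, which was seen afterwards and was not tested. In hypothalamus the medians were 0.02 for astrocytes, 0.03 for oligodendrocytes, -0.01 for microglia, -0.06 for endothelium and -0.10 for ependyma and tanycytes. Choroid plexus epithelium markers in hypothalamus had 8 of 13 below 0 (median -0.11). The part of these cells in the values of the 10 genes was not tested.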

How the data were processed

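Poly(A) RNA isolated with a PicoPure kit was made into directional dUTP libraries, per the labels' protocols. HISAT2, featureCounts and DESeq2 were used with GRCm38 (mm10), per the submitters' processing notes. Tool versions and how strand was counted were not given in the sources used here. The authors deposited 1 table per tissue of signal, meaning counts per gene after division by DESeq2 size factors. All values were whole multiples of 1 step per library within 0.02, which gave reads and depth. No libraries of a group were alike within sampling noise (lowest chi-square per gene 5.55).

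limma 3.58.1 (R 4.3.3) was fitted per tissue, with eBayes trend, to log2(value + 1) for genes with a mean of at least 10, two-sided, with Benjamini-Hochberg adjustment over 14533 genes in choroid plexus and 16363 in hypothalamus. On that scale the change of a low gene is understated. Confidence is 95%. Choroid plexus genes also had an exact permutation test over 462 splits, and correlations had 100000 permutations. edgeR 4.0.16 and DESeq2 1.42.0 on the recovered reads, other filters, pseudocounts and scalings, array weights, a replicate block and leaving out each library were alternatives. Scripts were tested on simulated data. Exon lengths and positions came from GENCODE for GRCm38.

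The members and lists were chosen with earlier results of these data known. Named were the 10 members, the 8 genes nearest Clk1 by centred r in each tissue (1 is not reported here), list genes past the threshold or else the 2 with the highest mean (not all are printed), and Ins2. Jchain, Prpf39, Hipk2, Kcnq1ot1, Irs2, Crh and Hmx2 were named after their values were seen. None of the 13 mitochondrial symbols matched, and they are not analysed here.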

Additional observations from a re-analysis of the deposited data

Results flagged for a closer look

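Each group of the 10 genes was searched for a library far from the rest by Dixon's gap test, and 3 of 40 groups held one, where chance gives about 1 in 20. In choroid plexus, Ins2 replicate 4 held 1263 scaled reads of Luc7l, against 1505 to 1598 in the other Ins2 libraries. In hypothalamus, Ins2 replicate 2, the deepest library at 62.1 M reads, held 4262 scaled reads of Luc7l, against 4640 to 4728 in the other Ins2 libraries. The same library held 8153 scaled reads of Srsf5, against 9671 to 9958 in the others. No explanation of these 3 values was tested.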

How the results depend on the processing

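In choroid plexus the count of genes called was 2, and it was 25 with DESeq2 (4 higher and 21 lower), 6 (0.0413%) with limma array weights (2 higher and 4 lower), 1 with a mean of at least 50, and 1 to 4 without 1 library (4 without Ins2 replicate 5, 1 without Ins2 replicate 1 or 4 or control 4). None of these calls was one of the 10 genes (DESeq2 gave Clk2 no adjusted p). Differences close to 0 changed sign there: Srsf7 was at -0.00046 with array weights, and without 1 library the log2 difference ran from -0.034 to 0.095 for Clk1 (negative only without control 5), from -0.028 to 0.052 for Clk4, from -0.099 to 0.021 for Srsf5 and from -0.030 to 0.031 for Srsf7. Clk2 ran from 0.26 to 0.35. The r of Clk1 with Srsf7 was 0.547 with equal totals per library (permutation p = 0.0829, unadjusted), and from 0.479 to 0.704 without 1 library, with an unadjusted p above the threshold in 9 of 11 cases. Those with Luc7l3 (0.754 to 0.848) and Srsf11 (0.636 to 0.802) kept their sign and an unadjusted p under the threshold. After adjustment over the 9 relations, r passed in 7 of 11 cases for Luc7l3 and 2 of 11 for Srsf11. In hypothalamus the count of genes called was 0 with limma and edgeR, 21 with DESeq2, and 0 to 18 without 1 library (18 without control 6, 1 without control 4). Of the 10 genes, DESeq2 called 2, Clk1 and Luc7l3, and leaving out 1 library gave 0 or 1 (Clk1, without control 6). Over all 16363 genes tested DESeq2 called 0.128%, and limma without control 6 called 0.11%. Clk1 and Luc7l3 chose the set through this same contrast, so their calls support nothing about it. Clk1 ran from -0.31 to -0.21 and Luc7l3 from -0.20 to -0.16. Centring on the group means took the r of Clk1 with Luc7l3 from 0.799 to 0.406 and with Srsf11 from 0.653 to 0.307. The cause of these changes was not tested. Replicate numbers are shared by the groups, but same-numbered libraries did not deviate together (correlations -0.148 to 0.140 in choroid plexus and -0.0699 to 0.00886 in hypothalamus), so they were not taken as pairs, and of all libraries only choroid plexus control 1 correlated best with its own number. A replicate block also leaves out libraries whose number is in 1 group. It called 2 genes in choroid plexus and 57 (0.348%) in hypothalamus, of which 1 was among the 10 (Clk1, chosen from this contrast). The same libraries without the block, an alternative chosen after seeing the data, gave 2 and 0, and Clk4 in choroid plexus was at -0.0018 with and without the block. List medians and adjusted p-values of r without 1 library were also added after seeing the data. Depth limits Clk2 most, with a counting error of 8.56% of its level in choroid plexus and 6.08% in hypothalamus.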
